A study of Homo sapiens with 2 samples.

Results

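The messages of 10 surface antigens of acute myeloid leukaemia were measured by RNA sequencing in KASUMI-1 cells. They are CD33, CLEC12A, CD34, PROM1, CD38, CD44, CD99, CD47, CD96 and HAVCR2, chosen by gene symbol among 50464 symbols in the deposited table, and all 10 were listed there. KASUMI-1 is an established human line of acute myeloid leukaemia that carries the RUNX1-RUNX1T1 fusion. One culture had been infected with a lentivirus labelled USP6, after the deubiquitinase whose effect on RUNX1 fusion proteins the series title names. The other had been infected with one labelled pccl, taken here as the control. With 1 library in each group there are no replicates, and the differences below are given without a test. The time after infection, the promoter of the vector and whether clones or pooled cells were used are not stated in the sources used here.

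Surface antigens of leukaemic blasts serve diagnosis by flow cytometry and are targets of antibodies and engineered T cells. CD34 and PROM1 mark blood progenitors, whereas CD33 and CLEC12A are carried by myeloid progenitors and maturing myeloid cells. CD44, CD47, CD96, CD99, CLEC12A and HAVCR2 have been described on leukaemia stem cells, the fraction of blasts that can restart the disease. Normal stem cells mostly lack CD96, CLEC12A and HAVCR2, while low CD38 beside CD34 defines the most primitive compartment.

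The libraries held 12518795 counts (USP6) and 12306442 counts (pccl), of which the mitochondrial genome took 45.6% and 49.9%. The check of the introduced gene gave 70 counts of USP6 in the USP6 library and 8 in the pccl library, both under 1 FPKM (fragments scaled by gene length and by the total of the library). Of 7 markers of a myeloid leukaemia line, CD34 among them, 6 reached 1 FPKM. By the limit defined below, 2 of these 6 were higher and 3, with CD34, were lower in the USP6 library. Among all genes that reached 1 FPKM, 13.7% were higher and 11.4% lower. MPO had 122 FPKM in the USP6 library and 27.4 in the pccl library, SPI1 had 230 and 93.95 in the same order, AZU1 had 13.0 and 37.4, and KIT had 39.99 and 99.3, while LYZ had 3 and 18 counts. Of 4 lists of other cell types, the 10 T and natural killer cell markers summed to 47.9 FPKM in the USP6 library and 39.0 in the pccl library, most of it CD3D and CD4. The 5 B cell markers summed to 13.9 and 4.06 FPKM, with MS4A1 at 1 count and 0 counts in the same order. The 8 erythroid and megakaryocyte markers summed to 1.06 and 0.337 FPKM, with ALAS2, PF4 and PPBP at 0 in both. The 9 stromal and epithelial markers summed to 8.80 and 17.4 FPKM, nearly all of it EPCAM, with COL1A2, COL3A1, VWF, CDH5 and KRT18 at 0 in both.

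Of the 10 antigens, 7 reached 1 FPKM in the higher library, 1 (CLEC12A) lay below it in both, 1 (CD38) had counts in the USP6 library alone and 1 (PROM1) had none. Differences were sized as log2((USP6 + 1)/(pccl + 1)) in FPKM, and a gene was called higher at 1 or more and lower at -1 or less. By that rule CD34 alone was lower in the USP6 library, which is 1 of the 7 antigens, beside 11.4% of all 10153 expressed genes. No antigen was counted as higher (0 of 7), beside 13.7% of expressed genes. CD33 and HAVCR2 were higher past a limit of 0.58 (1.5-fold), as were 27.9% of expressed genes. HAVCR2 counted as expressed through the USP6 library alone (1.05 FPKM, against 0.273 in the pccl library). CD34 was the only antigen lower past -0.58, as were 24.5% of expressed genes. The median log2 ratio of the 7 antigens was 0.12, and that of all expressed genes 0.06. Of the expressed genes past the limit, 54.7% were higher as deposited. The share was 65.2% with the same FPKM sum, 47.0% with the trimmed mean, 45.8% with depth from nuclear genes, 47.8% with a median of 0 and 49.6% after centring on GC content, so whether higher or lower genes were more numerous depends on the scaling.

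**Figure D1:**
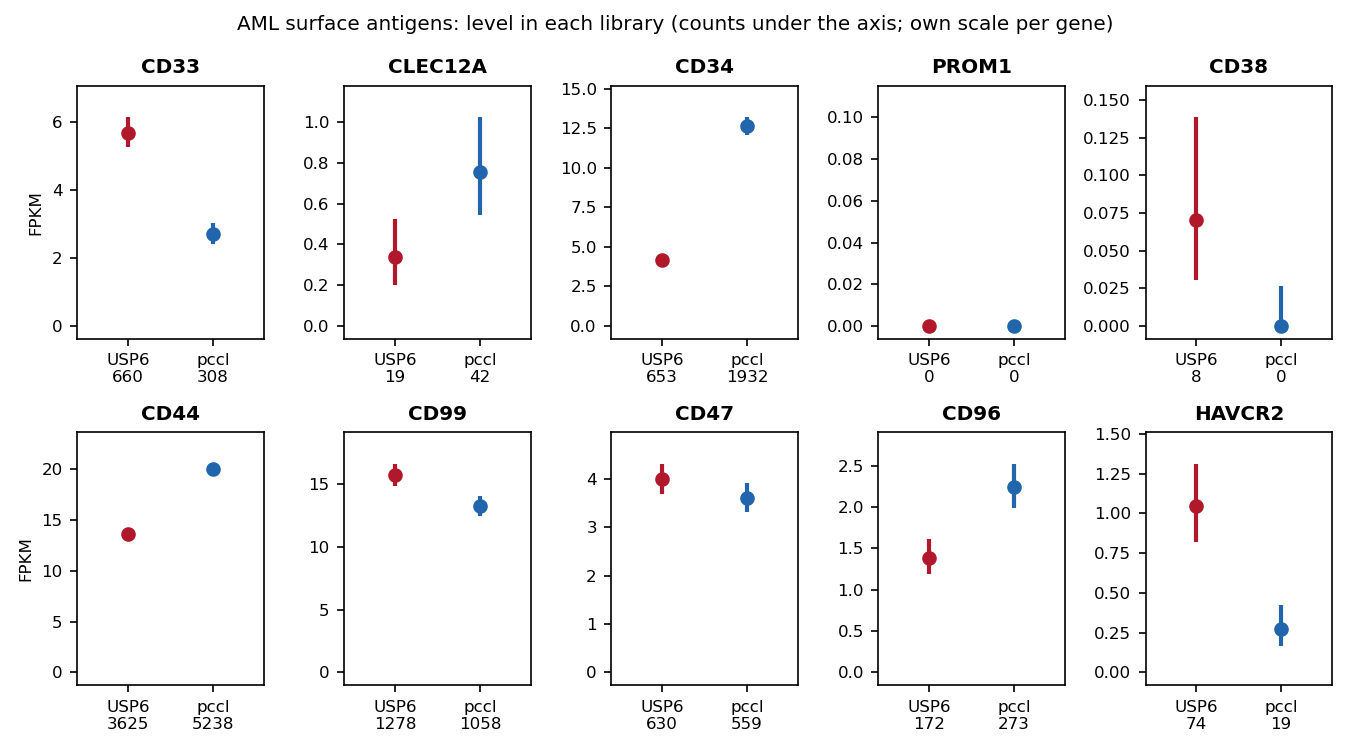
FPKM of each of the 10 antigens in the USP6 library (red, left) and the pccl library (blue, right), each gene on its own linear scale. Bars are 95% counting intervals and the counts stand under the axis. CD34 had 4.19 FPKM against 12.6, CD33 had 5.69 against 2.70, and PROM1 was at 0 in both.

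The sequence before the start site is shown for CD33 and CD34, whose messages differed most in opposite directions among antigens above 4 FPKM in either library, and for CD96 and CLEC12A, whose windows alone among the antigens matched the letters bound by RUNX factors, TGTGGT. Each line gives the 250 bases upstream of a RefSeq start (GRCh38.p14), 5′ to 3′ on the strand of the gene. Capitals mark TGTGGT (RUNX factors), GAGGAA (the core of PU.1 sites) and GGGCGG (the GC box), searched on both strands, with no overlapping matches in these 4 windows. The windows lie at chr19:51224830-51225079 (plus strand, CD33), chr1:207911126-207911375 (minus strand, CD34), chr3:111541947-111542196 (plus strand, CD96) and chr12:9971159-9971408 (plus strand, CLEC12A).
CD33: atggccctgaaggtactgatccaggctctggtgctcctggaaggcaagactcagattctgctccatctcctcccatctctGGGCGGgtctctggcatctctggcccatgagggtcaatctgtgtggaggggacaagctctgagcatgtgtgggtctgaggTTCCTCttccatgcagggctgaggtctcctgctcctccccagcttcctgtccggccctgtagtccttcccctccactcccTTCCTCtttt
CD34: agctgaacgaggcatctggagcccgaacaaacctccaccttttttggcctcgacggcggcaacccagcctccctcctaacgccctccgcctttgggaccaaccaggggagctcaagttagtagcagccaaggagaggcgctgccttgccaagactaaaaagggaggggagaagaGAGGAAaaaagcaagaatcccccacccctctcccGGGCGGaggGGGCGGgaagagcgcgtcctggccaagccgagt
CD96: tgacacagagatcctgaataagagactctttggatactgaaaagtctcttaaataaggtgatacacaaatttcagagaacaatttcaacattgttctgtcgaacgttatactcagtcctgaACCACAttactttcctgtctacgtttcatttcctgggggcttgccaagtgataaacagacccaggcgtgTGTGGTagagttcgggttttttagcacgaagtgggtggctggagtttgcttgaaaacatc
CLEC12A: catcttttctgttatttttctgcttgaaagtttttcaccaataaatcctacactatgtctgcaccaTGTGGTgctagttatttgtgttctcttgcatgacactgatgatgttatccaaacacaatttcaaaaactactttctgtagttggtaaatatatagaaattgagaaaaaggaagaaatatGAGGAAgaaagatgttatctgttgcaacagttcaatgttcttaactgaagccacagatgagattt

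The RUNX letters were found in 2 of the 9 antigens with a RefSeq window (2 of 12 windows), 2 matches for CD96 (129 and 60 bases before the start) and 1 for CLEC12A (184 bases before it). Among all 35116 RefSeq windows of that length, 11.0% held them. The PU.1 letters were in the windows of CD33, CLEC12A, CD34 and PROM1 (4 of 9 antigens, counting any window of a gene), and CD33 had 2 matches. PROM1 had 4 windows, of which 2 held these letters and 1 the GC box, and each other antigen had 1 (that of CD99 is listed on both X and Y). Counted by window, as the background is, the PU.1 letters were in 5 of 12, against 23.6% of all windows. The GC box was in 6 of 12, against 42.6% of all windows, and stood 6 times in the windows of both CD99 and CD47. GC content of the window ranged between 32.8% for CLEC12A and 79.6% for CD47, with a median of 58% over all windows. A match is a description of letters, and starts other than those of RefSeq may be used: that of CD96 lies 249478 bases inside the deposited locus and that of CLEC12A 20093 bases. The window of HAVCR2 was not analysed here.

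Of the lectin receptors, CD33 was higher in the USP6 library. CD33 (ENSG00000105383, chromosome 19 from 51225064 to 51243860, plus strand) encodes a sialic acid-binding lectin of myeloid cells whose cytoplasmic tail carries inhibitory tyrosine motifs (ITIMs), and it is the target of gemtuzumab ozogamicin. It had 660 counts (5.69 FPKM) in the USP6 library and 308 counts (2.70 FPKM) in the pccl library. The fold was 2.11, with a 95% counting interval of 1.84 to 2.42. Intervals here are exact conditional binomial (Clopper-Pearson) and cover counting error only, not differences between cultures. On the scale with the pseudocount CD33 stood at 0.85, under the limit of 1. Its level was above that of 70.9% of expressed genes in the USP6 library and of 49.0% in the pccl library.

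CLEC12A (ENSG00000172322, chromosome 12 from 9951316 to 9995694, plus strand) encodes the C-type lectin also called CLL-1, which has an ITIM as well and recognises uric acid crystals. It had 19 counts (0.337 FPKM) in the USP6 library and 42 counts (0.758 FPKM) in the pccl library. The ratio of 0.445 (0.244 to 0.782) rested on these few counts. Both lectins thus had counts in both libraries, CD33 with more in the USP6 library and CLEC12A with more in the pccl library.

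Of the progenitor antigens, CD34 was lower in the USP6 library and PROM1 was not detected. CD34 (ENSG00000174059, chromosome 1 from 207880972 to 207911402, minus strand) encodes the sialomucin that marks blood stem and progenitor cells. It had 653 counts (4.19 FPKM) in the USP6 library and 1932 counts (12.6 FPKM) in the pccl library, 3.01-fold lower (2.75 to 3.29). Its log2 ratio of -1.39 was undercut by 5.46% of expressed genes. In RNA from a whole culture, fewer cells that carry a message and less of it per cell cannot be told apart. PROM1 (ENSG00000007062, chromosome 4 from 15963076 to 16084378, minus strand), which encodes the pentaspan protein CD133, had 0 counts in either library, which allows up to 3 counts in each.

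CD38 (ENSG00000004468, chromosome 4 from 15778275 to 15853230, plus strand) encodes an ectoenzyme that breaks down NAD and makes cyclic ADP-ribose, and it is the target of daratumumab. It had 8 counts (0.0703 FPKM) in the USP6 library and 0 counts in the pccl library. Set against a floor of 3 counts in the pccl library, the ratio was 2.62. That value leaves out the counting error of the 8 counts, so it is not a lower limit. The message lay far under 1 FPKM in both libraries, while CD34 was above 4 FPKM in both.

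Of the adhesion molecules, CD44 gave 50.9% of all antigen counts in the USP6 library and 55.6% in the pccl library. CD44 (ENSG00000026508, chromosome 11 from 35138870 to 35232402, plus strand) encodes the receptor for hyaluronan that helps blasts lodge in the marrow niche. It had 3625 counts (13.6 FPKM) in the USP6 library and 5238 counts (20.0 FPKM) in the pccl library, 1.47-fold lower (1.41 to 1.53). CD44 is spliced into many variants, with 39 transcripts in GENCODE release 29, and counts per gene do not separate them.

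CD99 (ENSG00000002586, chromosome X from 2691179 to 2741309, plus strand) encodes a small glycoprotein used in the passage of leukocytes through vessel walls, and lies in the pseudoautosomal region. It had 1278 counts (15.8 FPKM) in the USP6 library and 1058 counts (13.3 FPKM) in the pccl library, a fold of 1.19 (1.09 to 1.29) that became 0.859 after centring on GC content. Its pseudogene CD99P1 had 8 and 24 counts in the same order, and reads of the gene and its copy may have been exchanged. The counts of the adhesion pair thus ran in opposite directions as deposited, each by less than 1.5-fold.

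The checkpoint molecules CD47, CD96 and HAVCR2 each went their own way. CD47 (ENSG00000196776, chromosome 3 from 108043298 to 108091025, minus strand) encodes the signal that restrains phagocytosis when macrophages read it through SIRPA. It had 630 counts (3.99 FPKM) in the USP6 library and 559 counts (3.60 FPKM) in the pccl library. The fold of 1.11 had a counting interval that held 1 (0.987 to 1.24), so as deposited no difference beyond counting error was seen. After centring on GC content the fold was 1.61.

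CD96 (ENSG00000153283, chromosome 3 from 111292719 to 111665750, plus strand) encodes a receptor of T and natural killer cells that binds PVR on other cells. It had 172 counts (1.39 FPKM) in the USP6 library and 273 counts (2.24 FPKM) in the pccl library, 1.61-fold lower (1.33 to 1.97). HAVCR2 (ENSG00000135077, chromosome 5 from 157085832 to 157142869, minus strand) encodes TIM-3, an inhibitory receptor of exhausted T cells that leukaemic blasts use in a loop with its ligand galectin-9. It had 74 counts (1.05 FPKM) in the USP6 library and 19 counts (0.273 FPKM) in the pccl library, a fold of 3.83 (2.29 to 6.71). With so low a level the log2 ratio with the pseudocount was 0.68. HAVCR2 overlaps MED7 on the same strand, which had 82 and 71 counts in the same order, and reads could have been split between them. Of the 10 T and natural killer cell markers, 4 reached 1 FPKM, with a median log2 ratio of 1.12. Among these 4, 2 were past 1 and 0 past -1, beside 13.7% and 11.4% of all expressed genes. CD3E had 372 counts in the USP6 library and 75 in the pccl library, and CD2 had 81 and 4 in the same order. Both counted as expressed through the USP6 library alone. CD4 was 1.74-fold higher (1.62 to 1.88), and CD3D had 22.6 FPKM in the USP6 library against 27.8 in the pccl library. The markers under 1 FPKM were CD3G (5 counts in the USP6 library and 3 in the pccl library), CD5 (4 and 0) and CD8A (4 and 18). GNLY (4 and 0), NKG7 (27 and 8) and KLRD1 (0 and 0) were also under it. Whether any T or natural killer cells were present, and whether such cells entered the values of CD96 and HAVCR2, was not tested.

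**Figure D2:**
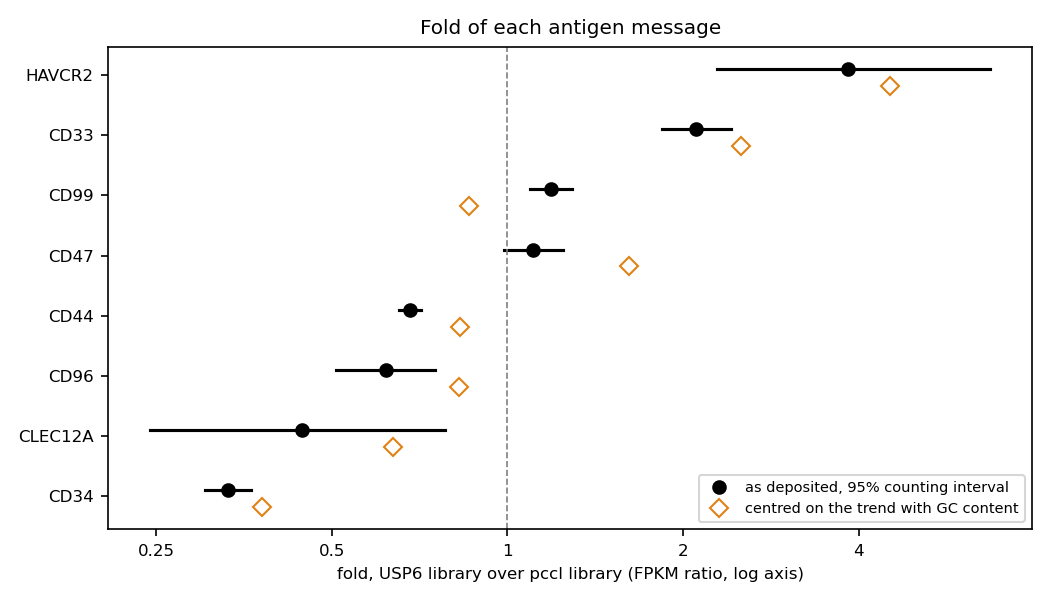
Fold of each antigen between the libraries (USP6 over pccl, ratio of FPKM on a log axis) for the 8 antigens with a count in both. Black points carry 95% counting intervals and open diamonds are the folds centred on the trend with GC content. CD33 and HAVCR2 lie above 1 and CD34, CLEC12A, CD96 and CD44 below it on both measures, and CD99 changes side.

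The order of levels differed between the libraries. In the USP6 library CD99 led, followed by CD44, CD33, CD34, CD47, CD96, HAVCR2, CLEC12A and CD38. CD34 and CD47 did not differ there beyond counting error, with a ratio of levels of 1.05 (0.939 to 1.17). In the pccl library CD44 led, followed by CD99, CD34, CD47, CD33, CD96, CLEC12A and HAVCR2, and CD99 and CD34 did not differ (1.05, 0.976 to 1.13). The level of CD33 was 1.36 times that of CD34 in the USP6 library (1.22 to 1.52) and 0.214 times in the pccl library (0.189 to 0.242). Added over the 10 antigens, there were 7119 counts in the USP6 library and 9429 in the pccl library.

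The lengths behind these levels shape the order. Derived from each count and FPKM, they were 1.51 to 5.02 times the longest transcript of the gene in GENCODE release 29, with 21290 bases for CD44 and 6477 for CD99. With the longest transcript in their place, a setting chosen after the data were seen, the ratio of CD99 to CD34 in the pccl library was 3.50 and CD34 in the USP6 library lay under CD47 (0.854). The ratio of CD33 to CD34 was then 1.76 in the USP6 library and 0.278 in the pccl library, so CD33 was above CD34 in the USP6 library and below it in the pccl library with either length. Folds of 1 gene between libraries do not depend on its length.

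Counting intervals excluded 1 for 7 of the 8 antigens with a count in both libraries, and for 6 of the 7 at 1 FPKM or more. The same held for 80.6% of expressed genes with a count in both, so this does not set the antigens apart. Across all expressed genes, GC-rich transcripts had the higher log2 ratios, with medians of -0.37 in the lowest and 0.74 in the highest of 10 GC classes. Antigen transcripts had GC contents between 37.2% (CLEC12A) and 56.5% (CD99). CD34, CD33 and HAVCR2 fell in the same class, whose median was -0.14, and had log2 ratios of -1.39, 0.85 and 0.68. Centred on the trend, they stood at -1.26, 1.03 and 0.85. CD44, at -0.52, moved to -0.33, CD96 to -0.16 and CLEC12A to -0.05. These log2 ratios include the pseudocount and folds do not: the fold of CLEC12A was 0.637 after centring, against 0.445 before. CD47 lay in a class with a median of -0.37 and stood at 0.48 after centring, against 0.12 before.

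**Figure D3:**
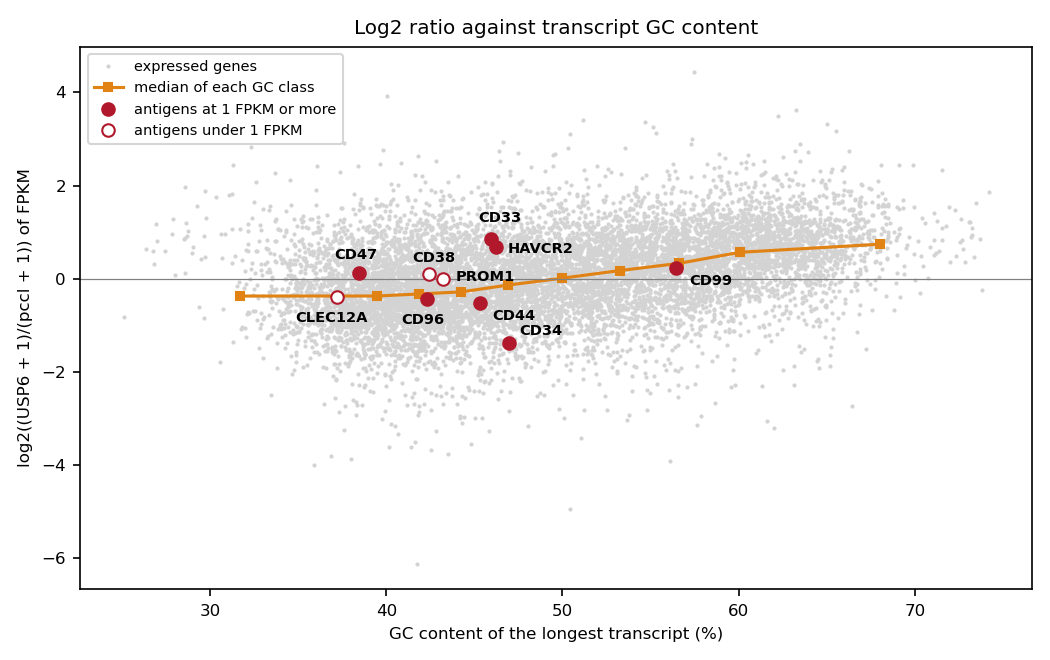
Log2 ratio of each expressed gene (grey points, USP6 over pccl with a pseudocount of 1 FPKM) against the GC content of its longest transcript in percent, with the median of each of 10 GC classes in orange. The antigens are in red, open where they lay under 1 FPKM. CD33 and HAVCR2 lie above and CD34 below the median of the class they share.

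Genes related to the antigens were described through 9 lists of other antigens, ligands, receptors and effectors, with 111 genes. Of the 48 at 1 FPKM or more, 9 were past 1 and 8 past -1, higher and lower in the USP6 library, which is 18.8% and 16.7% beside 13.7% and 11.4% of all expressed genes, and their median was 0.25. Among the higher genes, CD86, ANPEP, ITGAM, SIRPA, SIRPG and CLEC4E counted as expressed through the USP6 library alone. Among the lower genes, FUT4 and PVR did so through the pccl library alone. After centring on GC content 8 were higher and 8 lower: ANPEP, SIRPA and MMP14 dropped under the limit and FLT3 and CLEC4D passed it. The lists were chosen with earlier results of these data known.

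Other antigens of leukaemic cells went both ways. Of 28 genes, 15 were expressed, 4 higher and 4 lower, beside 13.7% and 11.4% of all expressed genes. Their median of 0.20 was -1.36 over the genes with at least 5 FPKM. ITGAM, the integrin chain CD11b of maturing myeloid cells, had 285 counts in the USP6 library and 10 in the pccl library, 28.0-fold higher (15.0 to 59.1). ANPEP, the aminopeptidase CD13, had 2.39 FPKM in the USP6 library and 0.451 in the pccl library, 5.29-fold higher (3.75 to 7.65), and its log2 ratio of 1.22 was 0.78 after centring on GC content. The costimulatory ligand gene CD86 was 4.67-fold (3.42 to 6.50) and the lymphoid receptor gene CD244 3.30-fold higher (2.40 to 4.60). KIT, the stem cell factor receptor, had 39.99 FPKM in the USP6 library and 99.3 in the pccl library. The fucosyltransferase gene FUT4, which makes the CD15 epitope, was 6.13-fold lower, with 74 counts in the USP6 library and 446 in the pccl library. The interleukin-1 receptor accessory gene IL1RAP was 3.96-fold lower and the activation antigen CD69 3.15-fold lower. Of the targets of antibodies in this list, IL3RA (CD123) had 52 counts in the USP6 library and 14 in the pccl library, and IL2RA, CD70 and LILRB4 had 0 in both.

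CD47 is read by the SIRP receptors, 2 of which were higher as deposited and 1, SIRPG, after centring on GC content. SIRPA had 2.94 FPKM in the USP6 library and 0.800 in the pccl library, 3.67-fold higher (2.94 to 4.61), with a log2 ratio of 1.13 that was 0.90 after centring on GC content. SIRPG was 6.95-fold higher (3.95 to 13.2), on 99 and 14 counts in the same order. SIRP genes resemble each other closely, and their counts are uncertain. CALR, which encodes the protein that invites phagocytosis when exposed on the surface, had 103 FPKM in the USP6 library and 91.7 in the pccl library. QPCTL, the enzyme that modifies CD47 for binding, had 4.86 and 4.66 FPKM in the same order. The list held 2 higher and 0 lower of 4 expressed genes, beside 13.7% and 11.4% of all expressed genes. Its median of 0.65 was 0.16 with a filter of 5 FPKM, which SIRPA and SIRPG do not reach, and 0.18 with no filter.

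Of the ligands of CD96 and HAVCR2 and their relatives, 1 of 7 expressed genes was past the limit, beside 25.1% of all expressed genes. The median of the 7 was -0.26. PVR, the CD96 ligand also called CD155, had 8 counts (0.134 FPKM) in the USP6 library and 203 counts (3.45 FPKM) in the pccl library, 25.8-fold lower (12.9 to 60.6). It overlaps CEACAM19, with which reads could have been exchanged. The related NECTIN2 had 5.80 FPKM in the USP6 library and 4.06 in the pccl library. LGALS9, the galectin-9 gene, had 4.76 and 2.87 FPKM in the same order, a fold of 1.66 (1.47 to 1.87). ADAM10, a protease that sheds HAVCR2, had 3.14 FPKM in the USP6 library and 6.66 in the pccl library.

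Among CD44 partners, MSN was lower, and MMP14 was past the limit as deposited. MSN encodes moesin, which ties CD44 to actin, and had 51.7 FPKM in the USP6 library and 190 in the pccl library, 3.68-fold lower (3.56 to 3.81). The other linkers of that family differed less in FPKM, EZR with 14.4 and 17.4 and RDX with 0.544 and 1.23 in the same order. MMP14, a membrane protease that cleaves CD44, was 2.20-fold higher (1.96 to 2.47), at a log2 ratio of 1.02. It was under the limit with the trimmed mean (0.93), with depth from nuclear genes (0.91), with a median of 0 (0.95) and after centring on GC content (0.55). HMMR, a further hyaluronan receptor, had 2.28 FPKM in the USP6 library and 4.59 in the pccl library. The hyaluronan synthase genes HAS1 and HAS2 had 0 counts in both libraries. HAS3, under 1 FPKM in both, had 12 counts in the USP6 library and 1 in the pccl library. The median of the 6 expressed genes was -0.39.

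The phosphatases that ITIM receptors such as CD33 recruit went in opposite directions. PTPN6, which encodes SHP-1, had 43.3 FPKM in the USP6 library and 11.4 in the pccl library, 3.79-fold higher (3.58 to 4.01). PTPN11, which encodes SHP-2, had 16.6 FPKM in the USP6 library and 53.9 in the pccl library, 3.24-fold lower, and overlaps RPL6. Centred on GC content their log2 ratios were 1.33 and -1.36, against 1.83 and -1.64 before. INPP5D and SOCS3 were 1.63-fold and 1.75-fold higher, short of the limit.

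Few relatives of the lectins reached 1 FPKM, and 5 on each list had 0 counts in both libraries. Of 13 lectins related to CD33, SIGLEC10 alone was expressed, with 2.24 FPKM in the USP6 library and 0.989 in the pccl library. Those under 1 FPKM went both ways. SIGLEC5 had 20 and 0 counts in the same order, and CD22 had 18 and 7. SIGLEC8 had 3 and 28 counts, SIGLEC6 had 7 and 21, and SIGLEC15 had 5 and 10. Of 14 C-type lectins related to CLEC12A, 4 were expressed. CLEC4E had 95 counts in the USP6 library and 20 in the pccl library, 4.67-fold higher (2.86 to 7.99). Its log2 ratio of 1.01 was 0.94 to 0.97 with the trimmed mean, depth from nuclear genes or a median of 0. CLEC4D had 29 and 3 counts in the same order. CLEC5A had 3.31 FPKM in the USP6 library and 12.9 in the pccl library, 3.90-fold lower, and CLEC2B led its list with 27.5 and 18.9 FPKM in the same order. CLEC12B, the neighbour of CLEC12A, had 0 counts in the USP6 library and 9 in the pccl library.

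Relatives of CD34, PROM1, CD99 and CD38 that reached 1 FPKM stayed within the limit. Of 6 expressed relatives and partners of CD34, PROM1 and CD99, 0 were past 1 or -1, beside 25.1% of expressed genes in either direction, with a median of 0.19. PODXL, a sialomucin of the CD34 family, had 1.24 FPKM in the USP6 library and 2.31 in the pccl library. CD99L2 had 1.49 FPKM in the USP6 library and 2.63 in the pccl library. PILRA, a receptor that binds sialylated proteins, had 96 and 36 counts in the same order and overlaps PILRB. Of 5 genes on the list of CD38, 1 was expressed. This was BST1, the paralogue of CD38 on myeloid cells, with 2.20 FPKM in the USP6 library and 2.97 in the pccl library. PECAM1, on the same list and under 1 FPKM in both, had 21 and 1 counts in the same order.

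**Figure D4:**
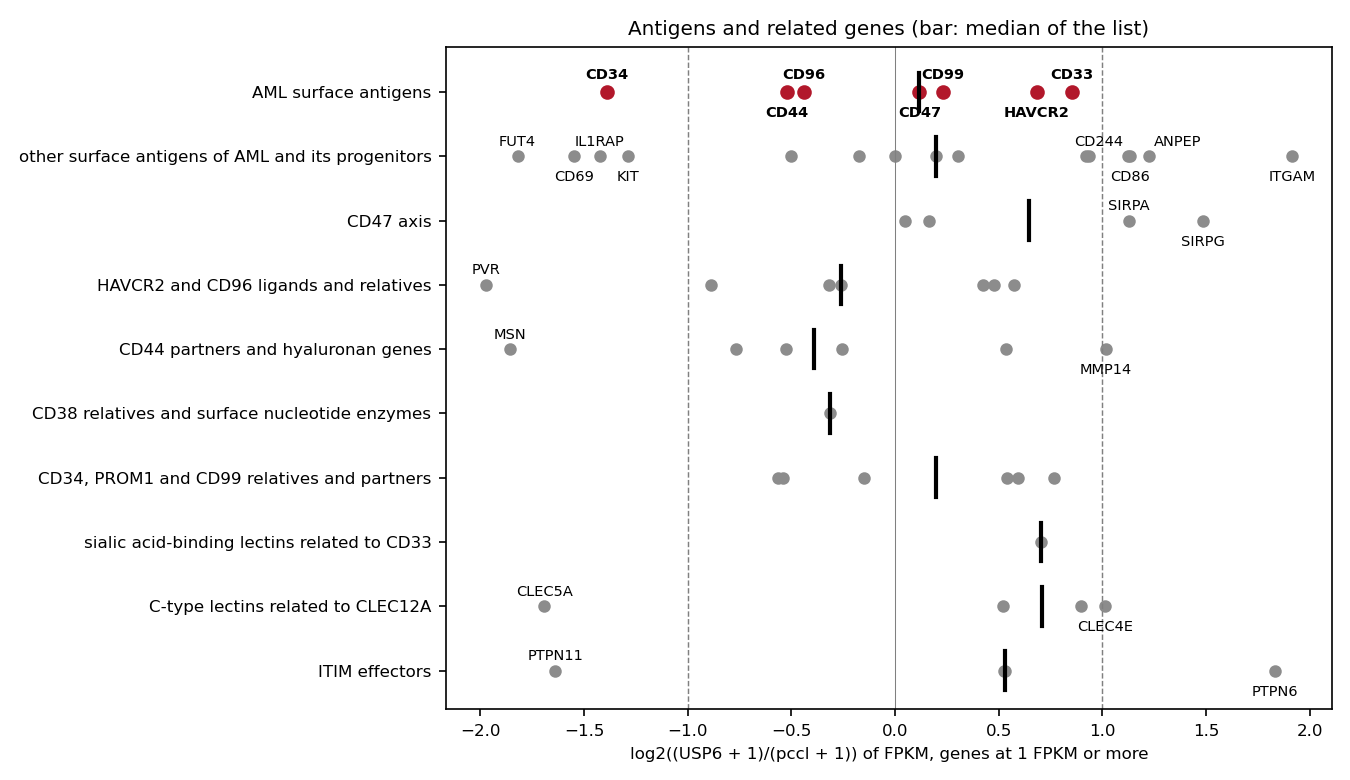
Log2 ratio (USP6 over pccl with a pseudocount of 1 FPKM) of every antigen (red) and related gene (grey) at 1 FPKM or more, by list, with the median as a bar and dashed lines at -1 and 1. Genes past the lines are named: 9 related genes lie above 1 and 8 below -1, and CD34 is the antigen past a line.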

How the data were processed

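RNA of KASUMI-1 cells was sequenced as 1 library per group, and the labels assign each library to its lentivirus. HISAT2 (2.0.4), edgeR and StringTie (1.3.3b) appear in the submitters' processing notes, with no role stated. The sources used here do not give build, annotation or strandedness. The deposited table lists 50868 genes with counts, whole numbers as the authors deposited them, and FPKM. The deposited FPKM equals the count over a gene length and the column total, in all 16030 genes with counts in both libraries (lengths equal within 0.1%). Gene coordinates are as deposited; 94.8% of identifiers shared with GENCODE 29 carried the same locus there.

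Genes with 1 symbol were summed (50464 symbols). Expressed means at least 1 FPKM in the higher library. Log2 ratios used a pseudocount of 1, and folds are FPKM ratios without it. The counts leave 0 residual degrees of freedom, so none was tested. Intervals are exact at 95%, and a count of 0 was set to a floor of 3 counts. PCR copies of 1 molecule are not independent, so intervals may be too narrow.

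The antigens and the 14 gene lists were chosen with earlier results of these data known. All 10 antigens are named, and of each related list the expressed genes past 1 or -1 and those with the 3 largest absolute log2 ratios could be. Some genes on these lists are not reported here. GC content is that of the longest GENCODE 29 transcript (99.5% of expressed genes), with a lowess span of 0.3. Promoter windows are those of RefSeq (GRCh38.p14) for 9 of 10 antigens. Other pseudocounts, filters, limits, scalings (trimmed mean of M values with edgeR 4.0.16) and GC centring were tried. The steps were tested on simulated Poisson data (USP6 over pccl, 50464 genes): 100% of genes set 4-fold higher and 99% of those set 4-fold lower were recovered, and 0.238% of unchanged expressed genes were called. Poisson data hold counting error alone and no differences between cultures. These shares check the steps and are not error rates of the comparison of the 2 libraries. Software was R 4.3.3, Python 3.11.15, SciPy 1.17.1, NumPy 2.4.6, statsmodels 0.14.6, pandas 2.3.3 and matplotlib 3.10.9.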

Additional observations from a re-analysis of the deposited data

How the results depend on the processing

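No paired analysis was possible because each group held 1 library. CD34 was the antigen counted as lower under every setting run except a pseudocount of 5, which left 0 lower (log2 ratio -0.94). The number of antigens counted as higher was 2 with a pseudocount of 0.1 (CD33 and HAVCR2) and with the limit of 0.58, and 1 (CD33) both with values scaled to the same FPKM sum and after centring on GC content. For the 9 antigens with a fold, 53 of 54 folds under other scalings, GC centring or single identifiers lay on the same side of 1, and the exception was CD99 after GC centring (0.859). Most of this tally was fixed by construction. Folds from single identifiers equalled those reported, each scaling multiplies all folds by the same factor, and the CD38 fold rests on the floor of 3 counts. Only GC centring could shift antigens by different amounts. Relative to the deposited scale, log2 ratios shifted by 0.17 with the same FPKM sum, by -0.10 with the trimmed mean, by -0.12 with depth from nuclear genes and by -0.06 with a median of 0. Over all expressed genes, 2295 were higher and 1993 lower with a pseudocount of 0.1, 364 and 301 with 5, 808 and 682 with a filter of 5 FPKM, and 2831 and 2489 with the limit of 0.58. With the same FPKM sum 2199 were higher and 1172 lower, whereas fewer were higher than lower with the trimmed mean (1194 and 1348), with depth from nuclear genes (1128 and 1337), with a median of 0 (1210 and 1319) and after GC centring (979 and 995). Of the related genes, 14 were higher with a pseudocount of 0.1, 1 higher and 5 lower with a pseudocount of 5, 2 higher with a filter of 5 FPKM and 15 with the limit of 0.58. Of the list medians, those that changed sign with a filter of 5 FPKM were -1.36 for other antigens (0.20 as reported), -0.59 for C-type lectins (0.71), -0.15 for relatives of CD34, PROM1 and CD99 (0.19, and -0.05 after GC centring) and 0.05 for the ligands of CD96 and HAVCR2 (-0.26). With no filter those of the lectins related to CD33 and of the CD38 relatives changed sign (-0.03 and 0.01, against 0.71 and -0.31). The pseudocount and the filter change these counts by construction. HAVCR2 fell under 1 FPKM in both libraries with depth from nuclear genes, and CLEC12A reached 1 with the same FPKM sum. The filter of 5 FPKM left out CD47, CD96 and HAVCR2. CD38, CLEC12A and HAVCR2 rest on the fewest counts, and the 2 libraries cannot tell the infection apart from any other difference between the cultures.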
